A study of Danio rerio with 4 samples.

Results

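Cell division in the early zebrafish embryo is run by a small set of kinases, phosphatases and checkpoint genes, and 10 of them were followed here in bulk SLAM-Seq libraries. They were chosen by name and comprise the kinases wee1, wee2, chek1, cdk1, plk1, aurka and aurkb, the phosphatases cdc25b and cdc25d, and cdc20, an activator of the anaphase-promoting complex (APC/C). All 10 were found among the 25769 genes of the deposited table, 9 by name and cdc25d by its Ensembl identifier. AB/TL wild type embryos had been injected with 4-thiouridine (4sU) at the 1-cell stage and collected in pools of 25 at 4.8 hpf (30% epiboly) or at 1 hpf (4-cell). The labels call the later sample 6 hpf and give 20 mM 4sU, whereas the study's methods give 4.8 hpf and 50 mM. Each stage had 1 polyA+ library, made from RNA captured by its poly(A) tail, and 1 ribo-depleted library, 4 in all, and the series describes its replicates as technical. In SLAM-Seq, RNA made after the injection carries 4sU, which is read as C in place of T after conversion with iodoacetamide. The new-to-total RNA ratio (NTR) is the labeled share of a gene's RNA, and the remainder is called unlabeled.

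In the cleaving embryo, Cdk1 with its cyclins drives entry into mitosis. Wee1 and Wee2 hold Cdk1 inactive by phosphorylation, Cdc25 phosphatases remove that phosphate, and Chk1, the product of chek1, restrains Cdc25 when DNA replication is incomplete. Plk1 and the Aurora kinases build the spindle and align the chromosomes, and Cdc20 directs the APC/C to cyclins and securin so that mitosis can end. The first divisions are fast, synchronous and run on RNA and protein loaded into the egg. At the midblastula transition the cycles lengthen and the embryo's own genome becomes broadly active. In frog and fly embryos Chk1 is required for that lengthening.

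The libraries held 9058807 to 22521675 reads, and 8418 to 11491 genes in a library had at least 100 reads. Labeled reads made up 16.4% (polyA+) and 18.7% (ribo-depleted) of all reads at 4.8 hpf, against 0.188% and 1.40% at 1 hpf; where a pair of values follows, the polyA+ library comes before the ribo-depleted one. Marker genes told the later stage from the earlier one: 10 of 10 zygotic genes (tbxta, gsc and others) were higher at 4.8 hpf in both library types and 6 of 6 oocyte genes were lower. Whether the later sample was of 4.8 or 6 hpf was not tested by these genes. No library of embryos without 4sU was analysed here, so the 1 hpf libraries served as the background of T-to-C reads. Library type and sequencing platform changed together and cannot be told apart. With 1 library per stage and type, the values of a single library have no replicate error. The p-values measure only how differently the stages compared in the 2 library types, pooled over genes of similar abundance. A gene's own difference between library types did not set its spread. Its p-value therefore does not show whether its library types agreed. Values are given as reads per 1000000 reads of a library (RPM), so they are shares of the RNA sequenced. Fitted changes used further scaling factors between libraries (TMM), so they can differ from ratios of RPM. In whole embryos, a change in the number of cells and a change in RNA per cell cannot be told apart.

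Reads of the 10 genes together were a smaller share of the libraries at 4.8 hpf, and part of them were labeled. They summed to 2037 RPM (polyA+) and 1863 RPM (ribo-depleted) at 4.8 hpf, against 4724 and 3414 at 1 hpf. Of these, 22.9% (polyA+) and 21.0% (ribo-depleted) were labeled at 4.8 hpf, against 0.0236% and 1.23% at 1 hpf. Nearly all of the labeled RNA in the 1 hpf ribo-depleted library was of cdc20, 41.8 of 41.9 RPM. Among the 9 genes with enough reads for the test, wee1 rose, wee2, chek1, plk1, aurka and aurkb fell, and cdc25b, cdk1 and cdc20 did not pass (edgeR's quasi-likelihood test with Benjamini-Hochberg adjustment over 16315 genes). That is 1 gene of 9 higher, where 18.3% of all genes tested were higher, and 5 of 9 lower, where 14.4% of all genes were lower. The genes were chosen with earlier results of these data known, so these counts are a description only. The median log2 change in reads, 4.8 hpf over 1 hpf, was -1.39 over the 9 genes and 0.10 over all genes tested.

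**Figure D1:**
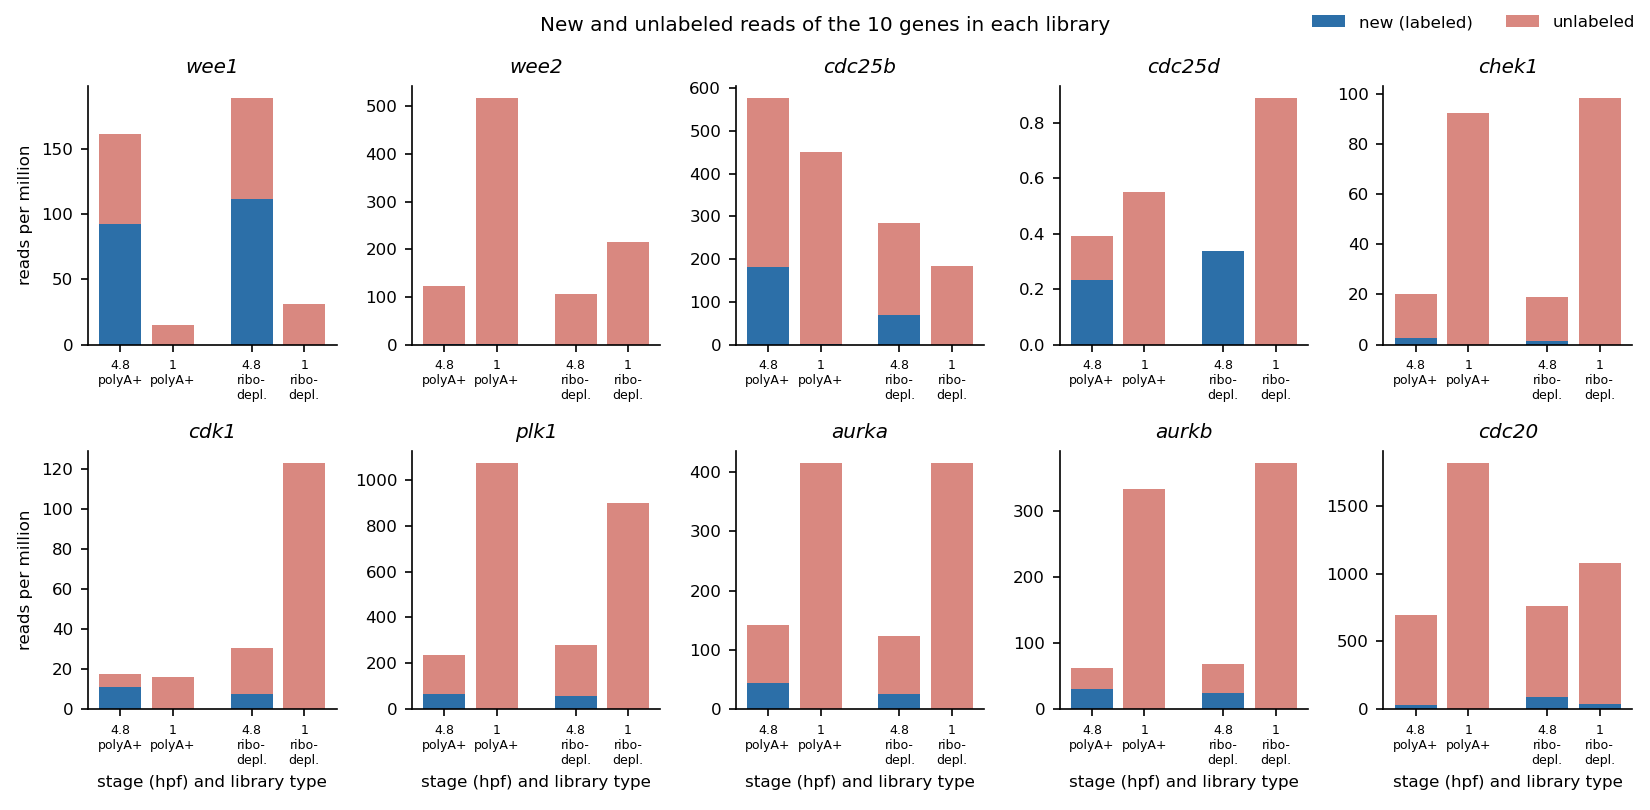
RPM (reads per 1000000 reads) in each of the 4 libraries (horizontal axis, stage in hpf and library type) for the 10 genes, split into new, labeled reads (blue) and unlabeled reads (red), with a separate linear vertical axis for each gene. The 4.8 hpf bars of wee1 reach 161 and 189 RPM, against 15.0 and 30.8 at 1 hpf, whereas those of wee2 hold almost no blue.

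The kinases that hold Cdk1 inactive moved in opposite directions. For wee1 (ENSDARG00000093864), 161 RPM (polyA+) and 189 RPM (ribo-depleted) were counted at 4.8 hpf, against 15.0 and 30.8 at 1 hpf. Both 4.8 hpf values lay above both 1 hpf values. How many of all genes were separated by stage in this way was not counted, for wee1 or for the genes below. The fitted rise was 8.99-fold (log2 change 3.17, SE 0.53, edgeR adjusted p = 2.76e-08), and it was in the same direction in each library type (10.7-fold in polyA+ and 6.13-fold in ribo-depleted libraries). Labeled RNA made up 57.5% (polyA+) and 59.0% (ribo-depleted) of wee1 at 4.8 hpf, against 0 and 0.10% at 1 hpf. Of the T bases covered by wee1 reads, the share converted to C was 4.87% (polyA+, 95% Wilson interval 4.63 to 5.13%) and 3.97% (ribo-depleted, 3.86 to 4.09%) at 4.8 hpf, against 0.122% (0.0414 to 0.357%) and 0.174% (0.129 to 0.232%) at 1 hpf. The intervals cover counting error only. They count each T base as independent, although many T bases lie on the same read, so they may be too narrow.

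For wee2 (ENSDARG00000012718), whose mammalian counterpart acts mainly in the oocyte, the libraries gave 123 (polyA+) and 106 (ribo-depleted) RPM at 4.8 hpf, against 517 and 215 at 1 hpf. The stages did not overlap, and reads of wee2 fell 2.62-fold (log2 change -1.39, SE 0.57, edgeR adjusted p = 0.0478). Its estimate was -0.62 without the 1 hpf polyA+ library and -2.18 without the 1 hpf ribo-depleted library. Its NTR was 0.20% and 0 at 4.8 hpf, against 0.09% and 0 at 1 hpf, so hardly any labeling was detected at either stage. The T-to-C share had intervals that overlapped between stages in each library type, at 0.166% (0.121 to 0.228%) and 0.0967% (0.0748 to 0.123%) at 4.8 hpf, against 0.150% (0.126 to 0.179%) and 0.0902% (0.0769 to 0.105%) at 1 hpf. Its NTR percentiles at 4.8 hpf, among all genes with at least 100 reads, were 10.7 and 4.32. By comparison wee1 stood at percentiles 90.5 and 89.6 in the same libraries. None of the counts of wee1, wee2 or plk1 was a whole number in any library. Those of cdk1 and of cdc25b were whole in only 1 library each. The 1 hpf ribo-depleted count of cdk1, 2772.67, was not whole. Part of the reads of these genes was thus shared with other genes, and their values are less certain on that account.

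Set against each other per length, the balance of the pair was different at each stage. In RPM per kilobase of gene length (RPKM), wee2 stood at 60.9 and 52.6 at 4.8 hpf, against 256 and 106 at 1 hpf, while wee1 stood at 46.9 and 54.9 at 4.8 hpf, against 4.37 and 8.95 at 1 hpf. The level of wee2 was thus 1.30 (polyA+) and 0.957 (ribo-depleted) times that of wee1 at 4.8 hpf, against 58.5 and 11.9 times at 1 hpf. Their summed RPKM was 108 and 107 at 4.8 hpf, against 260 and 115 at 1 hpf. The sum was therefore close at both stages in the ribo-depleted libraries and lower at 4.8 hpf in the polyA+ libraries, with no test of either difference.

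The phosphatase side of the switch was represented by cdc25b (ENSDARG00000010792), with 576 (polyA+) and 283 (ribo-depleted) RPM at 4.8 hpf, against 451 and 184 at 1 hpf. Each library type gave a higher value at 4.8 hpf, but the 4.8 hpf ribo-depleted value lay below the 1 hpf polyA+ value. The change did not pass the test (log2 change 0.64, SE 0.60, edgeR adjusted p = 0.437), and without the 1 hpf ribo-depleted library or the 4.8 hpf polyA+ library its estimate was -0.07 and -0.11. A sizeable part of cdc25b was nevertheless new: its NTR was 31.5% and 24.6% at 4.8 hpf, against 0.12% and 0 at 1 hpf. In RPM this was 181 (polyA+) and 69.8 (ribo-depleted) of labeled RNA at 4.8 hpf, the most of the 10 genes in the polyA+ library. Against the summed level of wee1 and wee2, cdc25b was 1.72 and 0.849 times as high in RPKM at 4.8 hpf, against 0.558 and 0.514 times at 1 hpf.

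The other Cdc25 gene, cdc25d (ENSDARG00000075599), was close to absent, with 4 and 6 reads at 4.8 hpf, against 5 and 20 reads at 1 hpf. It was not tested, and its listed NTR of 59.0% and 100% at 4.8 hpf rested on 3 of 70 and 12 of 224 covered T bases read as C. Values on so few reads say little of its level.

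The checkpoint kinase gene chek1 (ENSDARG00000104765) was lower at 4.8 hpf, and its labeled share was near the middle of all genes. Its NTR percentiles at 4.8 hpf, among all genes with at least 100 reads, were 59.3 (polyA+) and 49.3 (ribo-depleted). Reads of chek1 were 20.3 (polyA+) and 18.9 (ribo-depleted) RPM at 4.8 hpf, against 92.1 and 98.1 at 1 hpf. The library types gave nearly the same values within each stage, and the stages did not overlap. The fall was 4.37-fold (log2 change -2.13, SE 0.47, edgeR adjusted p = 5.00e-05). Of chek1 RNA, 12.2% and 8.19% was labeled at 4.8 hpf, against 0 in both 1 hpf libraries, and 1.08% (0.799 to 1.45%) and 0.688% (0.551 to 0.859%) of its T bases were converted to C, against 0.0972% (0.0589 to 0.160%) and 0.0997% (0.0802 to 0.124%) at 1 hpf. Its RPKM was the lowest of the 9 well-counted genes in both 4.8 hpf libraries.

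The target of the switch, cdk1 (ENSDARG00000087554), gave a different picture in each library type. It had 17.8 RPM (polyA+) and 30.5 RPM (ribo-depleted) at 4.8 hpf, against 15.95 and 123 at 1 hpf. The 1 hpf ribo-depleted library was the only high one, while the 1 hpf polyA+ library was the lowest. The change between stages did not pass the test (log2 change -0.80, SE 0.47, edgeR adjusted p = 0.191), and without the 1 hpf ribo-depleted library its estimate was 0.59. In the ribo-depleted libraries the log2 change was -2.00, and in the polyA+ libraries it was 0.16. At 1 hpf cdk1 was 7.72-fold higher in the ribo-depleted library than in the polyA+ library, and at 4.8 hpf 1.71-fold higher.

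Such a gap between library types was not general among the genes. The log2 ratio of polyA+ over ribo-depleted reads of cdk1 was -0.76 at 4.8 hpf, against -2.91 at 1 hpf, at percentiles 14.1 and 3.95 of all genes. The median over all genes was -0.09 at 4.8 hpf and -0.41 at 1 hpf, and the ratio of wee1 was -0.23 at 4.8 hpf and -1.01 at 1 hpf. At the other end, cdc25b stood at 1.02 at 4.8 hpf and 1.29 at 1 hpf, and wee2 at 0.21 at 4.8 hpf and 1.26 at 1 hpf, at percentiles 93.4 and 93.1 at 1 hpf. The ratio of aurka was 0.20 at 4.8 hpf and 0.00 at 1 hpf, and that of chek1 was 0.10 at 4.8 hpf and -0.09 at 1 hpf.

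**Figure D2:**
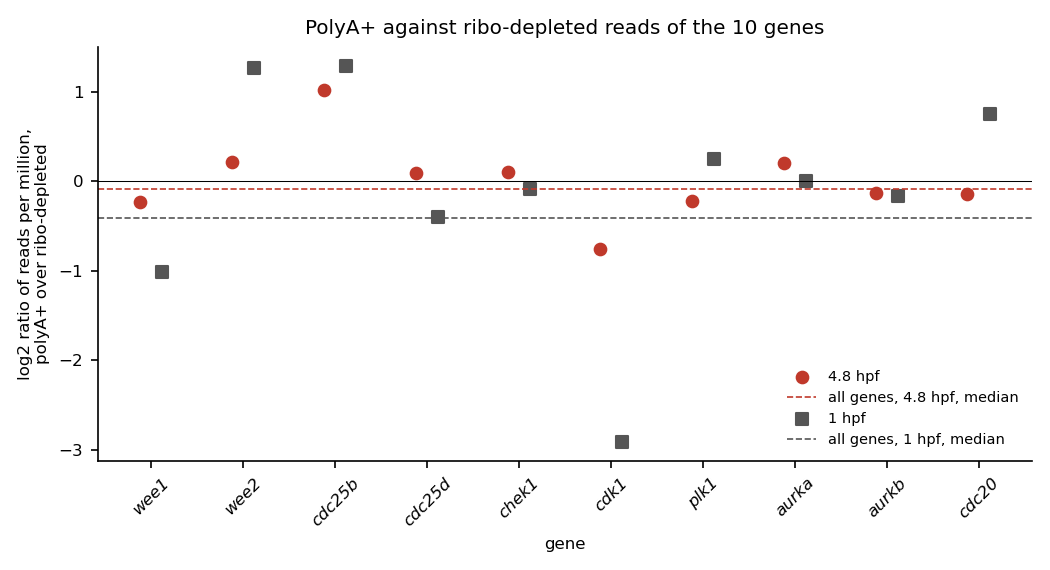
The log2 ratio of RPM in the polyA+ library over the ribo-depleted library of the same stage, for each of the 10 genes, at 4.8 hpf and at 1 hpf, with the median over all genes at each stage as a line. The 1 hpf value of cdk1, -2.91, is the lowest point, and cdc25b lies above 1 at both stages.

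The labeled share of cdk1 was also unequal. It was 63.1% (polyA+) and 24.8% (ribo-depleted) at 4.8 hpf, against 0 in both at 1 hpf. The amount of labeled RNA was nearer, 11.3 and 7.58 RPM at 4.8 hpf, whereas unlabeled RNA was 6.57 and 22.9 RPM at 4.8 hpf, against 15.95 and 123 at 1 hpf. Of the covered T bases, 4.81% (polyA+, 4.13 to 5.57%) and 1.71% (ribo-depleted, 1.54 to 1.90%) were converted at 4.8 hpf, against 0.197% (0.0987 to 0.469%) and 0.0698% (0.0561 to 0.0879%) at 1 hpf.

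The genes of the mitotic kinases plk1, aurka and aurkb all fell, and labeled RNA was a part of what was found at 4.8 hpf. For plk1 (ENSDARG00000058471), which acts from mitotic entry to cytokinesis, there were 238 (polyA+) and 278 (ribo-depleted) RPM at 4.8 hpf, against 1072 and 898 at 1 hpf. The stages did not overlap, and the fall was 3.43-fold (log2 change -1.78, SE 0.67, edgeR adjusted p = 0.0284). Labeled RNA was 27.8% and 21.3% of plk1 at 4.8 hpf, against 0.01% in both libraries at 1 hpf.

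For aurka (ENSDARG00000012485), the Aurora kinase of centrosomes and spindle poles, the libraries gave 143 (polyA+) and 124 (ribo-depleted) RPM at 4.8 hpf, against 415 and 415 at 1 hpf. This was a 2.80-fold fall (log2 change -1.49, SE 0.57, edgeR adjusted p = 0.0310). Its NTR was 31.2% and 20.7% at 4.8 hpf and 0 in both 1 hpf libraries. The Aurora kinase of the chromosomal passenger complex, aurkb (ENSDARG00000037640), had 63.1 and 68.9 RPM at 4.8 hpf, against 334 and 373 at 1 hpf. It fell 4.82-fold, the most of the 9 genes (log2 change -2.27, SE 0.56, edgeR adjusted p = 0.000324).

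Even so, aurkb had the highest labeled share of these 3 kinase genes in both library types, 49.2% (polyA+) and 36.5% (ribo-depleted) at 4.8 hpf, against 0 in both 1 hpf libraries. The share of its T bases converted to C was 4.23% (3.86 to 4.64%) and 2.44% (2.29 to 2.60%) at 4.8 hpf, against 0.134% (0.105 to 0.171%) and 0.121% (0.109 to 0.135%) at 1 hpf. In RPKM, the level of aurka was 2.75 and 2.19 times that of aurkb at 4.8 hpf, against 1.51 and 1.35 times at 1 hpf.

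Among the 10 genes cdc20 (ENSDARG00000100741) had the highest RPKM in all 4 libraries. It had 694 (polyA+) and 763 (ribo-depleted) RPM at 4.8 hpf, against 1813 and 1077 at 1 hpf. Both 4.8 hpf values lay below both 1 hpf values, yet the change did not pass the test (log2 change -0.79, SE 0.74, edgeR adjusted p = 0.441). Its NTR was 5.17% and 11.8% at 4.8 hpf, against 0 and 3.88% at 1 hpf.

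The value of 3.88% set cdc20 apart from the other 9 genes at 1 hpf, where none exceeded 0.12%. The converted share of its T bases was 0.643% (polyA+, 0.602 to 0.687%) and 0.840% (ribo-depleted, 0.815 to 0.865%) at 4.8 hpf, against 0.0918% (0.0820 to 0.103%) and 0.473% (0.460 to 0.487%) at 1 hpf. Over all genes the share in the 1 hpf ribo-depleted RNA was 0.232%, and that of plk1 was 0.221% (0.211 to 0.232%) with an NTR of 0.01%. No cause of the cdc20 value was tested.

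**Figure D3:**
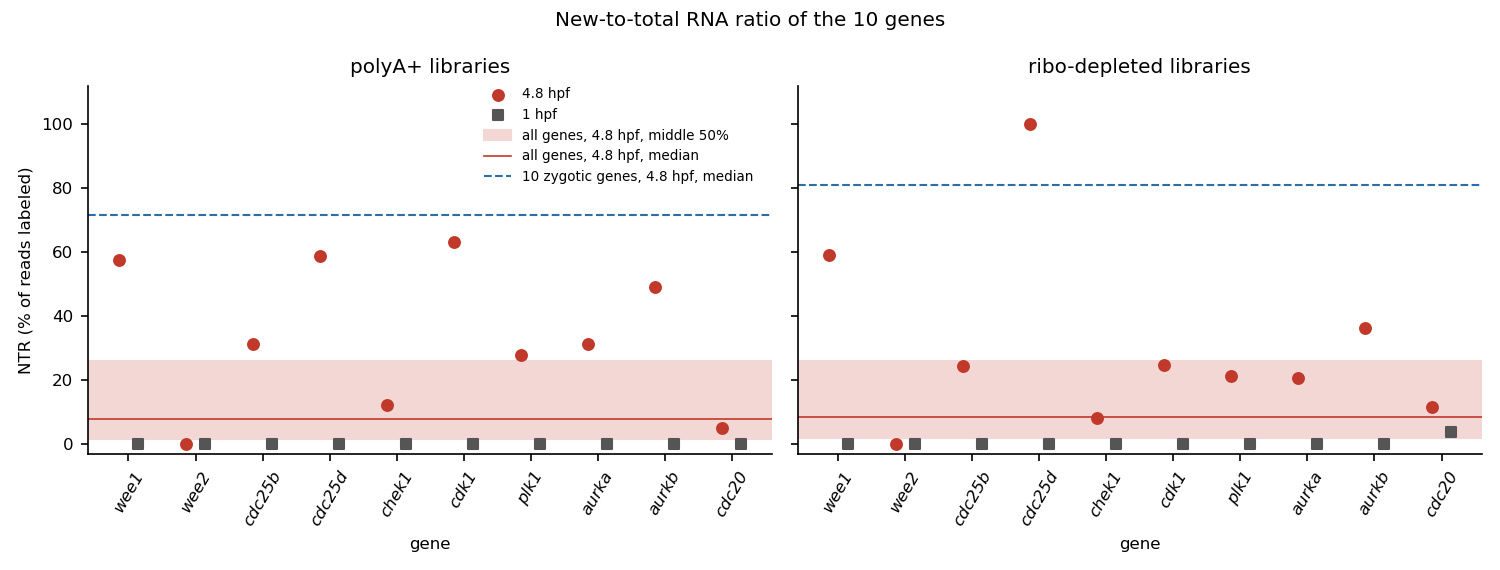
The NTR of the 10 genes, in percent of reads labeled, in the polyA+ libraries (left) and the ribo-depleted libraries (right), with 4.8 hpf as circles and 1 hpf as squares; the red line and band are the median and middle 50% of all genes with at least 100 reads at 4.8 hpf, and the dashed line is the median of 10 zygotic genes at 4.8 hpf. In both panels wee1 and aurkb lie above the band, wee2 lies below it at the level of its 1 hpf square, and cdc25d rests on 4 and 6 reads.

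All but wee2 and cdc20 in polyA+ RNA, and all but wee2 and chek1 in ribo-depleted RNA, had an NTR above the median of all genes at 4.8 hpf. The median NTR of the 10 was 31.3% (polyA+) and 22.9% (ribo-depleted), and over all genes with at least 100 reads it was 8.04% (middle 50%, 1.76 to 25.9%) and 8.49% (1.87 to 26.0%). Among the 10 is cdc25d, which had only 4 and 6 reads at 4.8 hpf. Over those of the 10 with at least 1000 reads the median was 29.5% and 21.3%. The NTR was below 100% also for RNA made after 1 hpf. The 10 zygotic genes, which together had 2978 (polyA+) and 1921 (ribo-depleted) RPM at 4.8 hpf, against 2.53 and 7.42 at 1 hpf, reached an NTR of 66.1 to 74.6% (polyA+) and 73.9 to 89.8% (ribo-depleted). Reads counted as unlabeled at 4.8 hpf thus include reads of such RNA as well as of stored RNA. Whether such RNA lacked label or its NTR was underestimated was not tested. Divided by the median NTR of the zygotic genes, that of wee1 became 80.2% and 72.7%, that of cdk1 88.0% and 30.6%, and that of aurkb 68.7% and 44.9%; this scaling was added after the data had been examined.

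The unlabeled reads, taken as reads times 1 minus NTR, were tested with the same model over 15325 genes. Here library sizes and TMM factors came from the unlabeled reads alone. The fitted changes are thus relative to the unlabeled reads of a library, while RPM is relative to all its reads. They are not on the same scale as the fitted changes in all reads. Again 1 of the 9 genes was higher (10.9% of all genes tested were higher) and 5 of 9 were lower (12.8% of all genes), with a median log2 change of -1.48 over the 9 genes and 0.05 over all genes. Over all genes 46.0% of the calls were higher, and 25.5% when scaled to library totals. The 5 lower genes of the 9 were chek1, cdk1, plk1, aurka and aurkb. Unlabeled cdk1 fell 2.78-fold (log2 change -1.48, SE 0.45, edgeR adjusted p = 0.00734), and its estimate without the 1 hpf ribo-depleted library was 0.12. Unlabeled aurkb was 32.0 (polyA+) and 43.7 (ribo-depleted) RPM at 4.8 hpf, against 334 and 373 at 1 hpf, a fall of 10.4-fold and 8.52-fold. Its fitted fall was 7.16-fold (log2 change -2.84, SE 0.57, edgeR adjusted p = 1.13e-05). What remained unlabeled at 4.8 hpf was 9.59% (polyA+) and 11.7% (ribo-depleted) of the 1 hpf amount of aurkb.

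Unlabeled plk1 stood at 172 and 219 RPM at 4.8 hpf, against 1072 and 898 at 1 hpf, a fall of 6.24-fold (polyA+) and 4.10-fold (ribo-depleted). The fitted fall was 3.84-fold (log2 change -1.94, SE 0.68, edgeR adjusted p = 0.0216). For aurka the unlabeled amounts were 98.2 and 98.4 RPM at 4.8 hpf, against 415 in both 1 hpf libraries, a fall of 4.22-fold in each library type. The fitted fall was 3.21-fold (log2 change -1.68, SE 0.57, edgeR adjusted p = 0.0186). The aurka values were almost equal in both library types, 23.7% of the 1 hpf amount in each. Unlabeled chek1 was 17.8 and 17.3 RPM at 4.8 hpf, against 92.1 and 98.1 at 1 hpf, a fall of 5.18-fold (polyA+) and 5.66-fold (ribo-depleted). Its fitted fall was 4.11-fold (log2 change -2.04, SE 0.46, edgeR adjusted p = 0.000139).

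Unlabeled wee1 was higher at 4.8 hpf, at 68.6 (polyA+) and 77.4 (ribo-depleted) RPM, against 15.0 and 30.8 at 1 hpf (log2 change 2.15, SE 0.47, edgeR adjusted p = 5.57e-05). After the scaling to zygotic genes the unlabeled amounts were 32.0 and 51.6 at 4.8 hpf, against the same 15.0 and 30.8 at 1 hpf, and the log2 change was 1.46 (edgeR adjusted p = 0.00664). The scaled values were thus still higher at 4.8 hpf in both library types. Unlabeled wee2 did not pass (log2 change -1.15, SE 0.58, edgeR adjusted p = 0.137). Scaled to library totals it passed (log2 change -1.54, edgeR adjusted p = 0.00835), as did all wee2 reads (log2 change -1.54, edgeR adjusted p = 0.0111). Hardly any wee2 reads were labeled, so the fits of all and of unlabeled wee2 reads differ by their scaling and not by labeled reads. Neither cdc25b (log2 change 0.41, SE 0.59, edgeR adjusted p = 0.645) nor cdc20 (log2 change -0.65, SE 0.74, edgeR adjusted p = 0.550) passed for unlabeled reads.

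**Figure D4:**
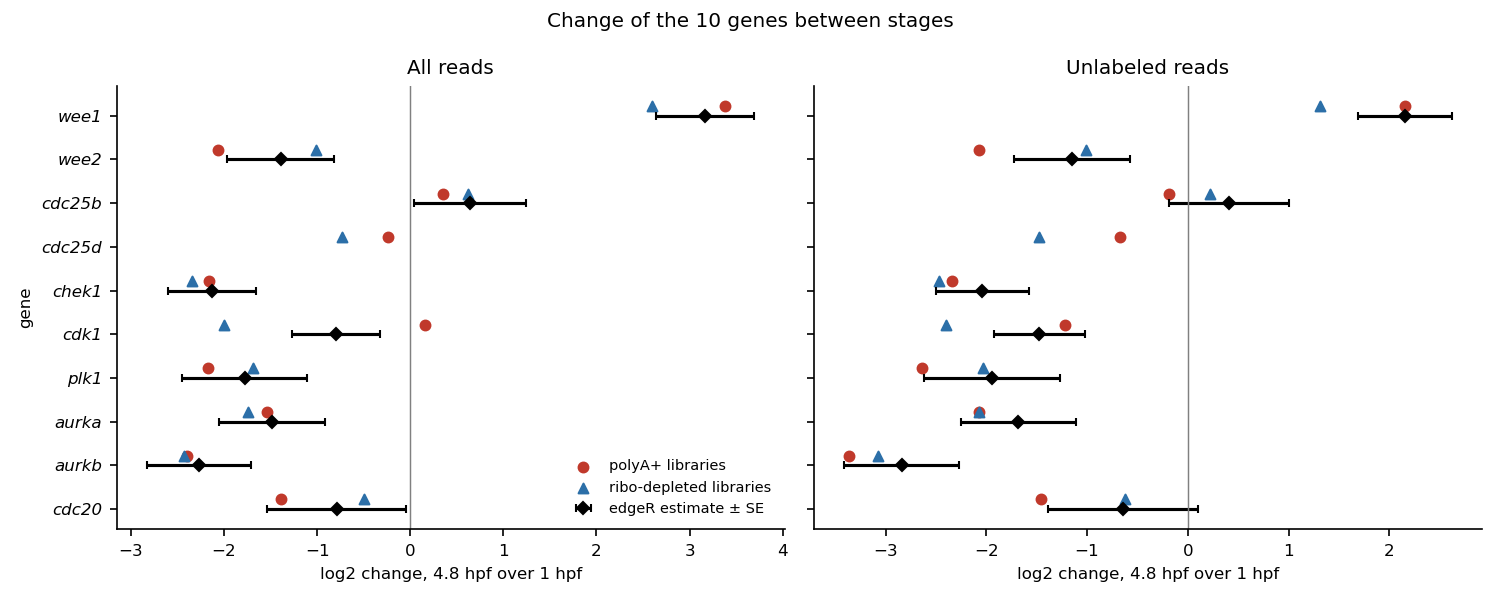
Log2 changes at 4.8 hpf over 1 hpf of all reads and of unlabeled reads for the 10 genes: black diamonds are edgeR estimates with SE bars (9 tested genes), red circles polyA+ and blue triangles ribo-depleted values. Circles and triangles are changes in RPM, and diamonds are scaled by TMM factors. For wee1 both fitted changes are above 0 (3.17 and 2.15), for aurkb both are below 0 (-2.27 and -2.84), and for cdk1 the polyA+ value of all reads, 0.16, lies right of 0 and the ribo-depleted value, -2.00, left of it.

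Without library type as a term, the log2 changes of all reads were -1.81 for plk1, -1.50 for aurka, -2.27 for aurkb and -1.61 for wee2, close to those with it, but these 4 no longer passed the test. In that fit wee1 and chek1 were past the threshold for all reads, beside 1977 of 16315 genes tested. For unlabeled reads 0 of the 9 genes were past it (5 at an unadjusted p under 0.05), beside 398 of 15325 genes tested. Leaving out each library in turn also removes library type from the fit and leaves 1 stage with a single library, which is assumed to vary like the 2 libraries of the other stage, and these differ in type. In these fits all reads of wee1 passed without either 4.8 hpf library and those of chek1 without the 1 hpf ribo-depleted library, and no other of the 9 genes passed. Neither wee1 nor aurkb passed for unlabeled reads in any of these fits. For unlabeled reads the log2 change over these fits was 1.80 to 2.52 for wee1 and -3.07 to -2.62 for aurkb. For cdk1 and cdc25b its sign was not the same in all of them. For all reads the edgeR adjusted p over them was 0.0219 to 0.0737 for wee1, 0.0484 to 0.369 for chek1, 0.0725 to 0.622 for aurkb, 0.0893 to 0.776 for wee2, 0.0937 to 0.852 for plk1 and 0.136 to 0.810 for aurka, and each kept its direction.

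Further genes of the same machinery were drawn from 4 lists of 75 genes, of which 69 were in the table and 64 were tested. The lists too were chosen with earlier results of these data known. Of the 64, 3 (4.69%) were higher and 19 (29.7%) lower for all reads, beside 18.3% and 14.4% of all genes, and 2 were higher and 20 lower for unlabeled reads, beside 10.9% and 12.8%. By list, all reads of 3 of 15 genes of the Cdk1 switch and Cdk partners were higher and 3 lower, and for the ATR and ATM checkpoint 0 of 11 were higher and 4 lower. Of 9 Polo and Aurora partners, 4 were lower and 0 higher, and of 29 APC/C and spindle checkpoint genes, 8 were lower and 0 higher. Without library type the number of lower genes was 6 for all reads and 2 for unlabeled reads. Over all genes it was 370 of 16315 and 40 of 15325 in that fit.

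The 3 that rose were Cdk partners or inhibitors. The inhibitor gene cdkn1a, a target of p53, had 26.8 (polyA+) and 24.98 (ribo-depleted) RPM at 4.8 hpf, against 0.110 and 0.400 at 1 hpf (log2 change 6.67, SE 0.66, edgeR adjusted p = 1.85e-22), with an NTR of 64.5% and 67.0% at 4.8 hpf. The related cdkn1ca had 114 and 65.9 at 4.8 hpf, against 0.442 and 4.48 at 1 hpf (log2 change 5.57, SE 0.57, edgeR adjusted p = 1.40e-20), with an NTR of 64.4% and 75.9%. The G1 kinase gene cdk6 had 23.1 and 9.04 at 4.8 hpf, against 5.96 and 4.66 at 1 hpf (log2 change 1.60, SE 0.49, edgeR adjusted p = 0.00492). The NTR of cdkn1a and cdkn1ca was above that of wee1 in both libraries, and cdkn1a had 1 and 9 reads at 1 hpf. Unlabeled reads of cdkn1a (log2 change 5.35) and cdkn1ca (4.03) were higher as well.

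The largest falls were in cdca9 and birc5b, both genes of chromosomal passenger proteins, and in fbxo43, an APC/C inhibitor of meiosis. The level of cdca9 was 4.90 and 12.3 RPM at 4.8 hpf, against 65.7 and 152 at 1 hpf (log2 change -3.53, SE 0.50, edgeR adjusted p = 4.64e-11). For birc5b there were 6.72 and 11.5 at 4.8 hpf, against 81.9 and 120 at 1 hpf (log2 change -3.33, SE 0.50, edgeR adjusted p = 3.54e-10). The level of fbxo43 was 31.8 and 98.7 at 4.8 hpf, against 976 and 469 at 1 hpf (log2 change -3.44, SE 0.71, edgeR adjusted p = 1.26e-05). Like wee2, these 3 were hardly labeled at 4.8 hpf, with an NTR of 0 in both libraries for cdca9 and birc5b and of 0 and 2.44% for fbxo43.

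Another 3 genes had fewer unlabeled reads at 4.8 hpf, with at least 50% of their RNA labeled in both libraries. The APC/C inhibitor of mitosis fbxo5 had an NTR of 62.9% and 50.9%, and its unlabeled reads fell (log2 change -1.80, SE 0.59, edgeR adjusted p = 0.0126) while all its reads did not pass (log2 change -0.82, edgeR adjusted p = 0.299). For ube2c, the ubiquitin-conjugating enzyme of the APC/C, the NTR was 55.5% and 50.6%, and unlabeled reads fell (log2 change -2.15, SE 0.49, edgeR adjusted p = 0.000162). For the APC/C subunit anapc13 the NTR was 72.7% and 53.9% on 37 and 85 reads, and the log2 change in unlabeled reads was -3.84 (SE 0.52, edgeR adjusted p = 9.14e-12).

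**Figure D5:**
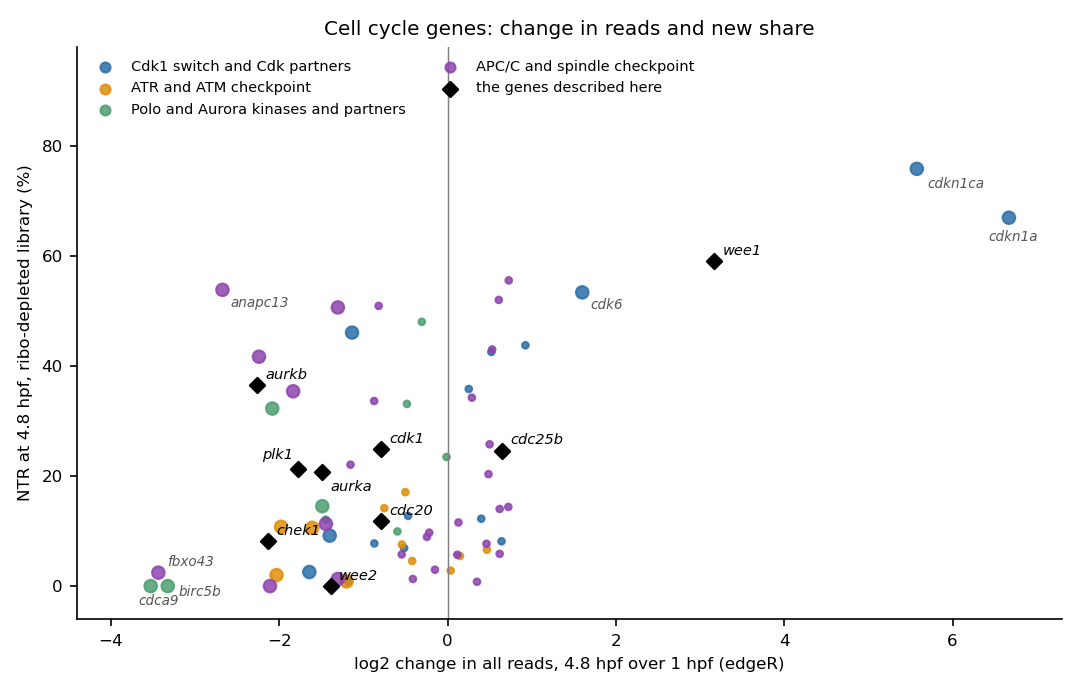
Log2 change in all reads at 4.8 hpf over 1 hpf (edgeR, horizontal axis) against the NTR in the 4.8 hpf ribo-depleted library (percent, vertical axis) for the 64 tested genes of the 4 lists, coloured by list, with large points for genes past the threshold and small points for the others; black diamonds are the 9 tested genes among the 10. The cyclin-dependent kinase inhibitors cdkn1a (67.0%) and cdkn1ca (75.9%) and wee1 (59.0%) lie at the upper right, and cdca9, birc5b (both 0) and fbxo43 (2.44%) lie at the lower left.

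Close relatives of the 10 genes did not all move with them. The membrane-bound relative of Wee1, pkmyt1, had 8.42 (polyA+) and 5.84 (ribo-depleted) RPM at 4.8 hpf, against 16.2 and 35.9 at 1 hpf, and fell (log2 change -1.64, SE 0.48, edgeR adjusted p = 0.00340), with an NTR of 15.8% and 2.55%. The second checkpoint kinase gene, chek2, had 19.2 and 47.8 at 4.8 hpf, against 85.6 and 222 at 1 hpf, and fell as well (log2 change -2.03, SE 0.49, edgeR adjusted p = 0.000267), with an NTR of 4.89% and 1.99%. The Polo-like kinase genes plk3 (log2 change -0.48, edgeR adjusted p = 0.602) and plk4 (log2 change -0.31, edgeR adjusted p = 0.645) did not pass for all reads.

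Both were more labeled than plk1 at 4.8 hpf, plk3 at 45.3% and 33.1% and plk4, which directs centriole duplication, at 53.0% and 48.0%. The alternative APC/C activator fzr1a stood at 154 and 90.8 RPM at 4.8 hpf, against 81.2 and 106 at 1 hpf, and did not pass (log2 change 0.50, edgeR adjusted p = 0.462). Its NTR was 25.1% and 25.8% at 4.8 hpf, against 0.28% and 4.45% at 1 hpf. That of cdc20 was 5.17% and 11.8% at 4.8 hpf, against 0 and 3.88% at 1 hpf. The paralog of fzr1a, fzr1b, was named after its values were seen. It had 8 and 9 reads at 4.8 hpf, against 23 and 79 at 1 hpf, and fell (log2 change -2.11, SE 0.63, edgeR adjusted p = 0.00398). Genes plk2a and plk2b had at most 31.5 reads in any library and were not tested, and cdc25 was not matched in the table.

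By a distance over the NTR in the 4.8 hpf libraries and the log2 change in each library type, among 68 genes of the lists and the 10, wee2 was nearest to mastl (distance 0.104), anapc11 (0.147) and mnat1 (0.216). These 3 had an NTR of 0.81 to 11.3% at 4.8 hpf and log2 changes of -0.98 to -1.82. The nearest to cdk1 were mad2l1 (0.245), cdk7 (0.311) and plk4 (0.336), with an NTR of 33.6 to 54.0% at 4.8 hpf. Their log2 changes, which the distance used, were -0.50 (polyA+) and -1.54 (ribo-depleted) for mad2l1, -0.67 and -1.87 for cdk7 and 0.21 and -1.11 for plk4, beside medians of 0.01 and -0.35 over all genes.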

How the data were processed

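The authors trimmed reads with cutadapt 3.5, aligned them to GRCz11 (Ensembl 102) with STAR 2.7.10a and ran GRAND-SLAM 2.0.5f, per the labels and methods. The deposited table gives for each gene and library estimated counts of reads, which are not normalized, the NTR as a fraction from 0 to 1, the number of T-to-C conversions, the coverage as T bases covered by reads, and the gene length. Fractional counts mark reads shared between genes. The labels give replicate numbers that the deposited table does not carry, so stage and sequencing instrument, which the methods tie to the library type, identify each of the 4 libraries.

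Estimated counts were rounded, and the stages were tested with edgeR (version 4.0.16, R 4.3.3; TMM factors, filterByExpr, quasi-likelihood F test, adjusted p under 0.05 by Benjamini-Hochberg), with library type as a covariate and 1 residual degree of freedom; edgeR gave all genes of similar abundance 1 spread. Unlabeled reads were reads times 1 minus NTR, and the error of the NTR did not enter the test. Library sizes and TMM factors of that fit were computed from the unlabeled reads. Changes in each library type used a pseudocount of 0.5 RPM, and Wilson intervals of T-to-C shares covered 95%. SE was the log2 change divided by the square root of F. Counts were also simulated, and 15893 genes of these passed the filter on low counts, of which 188 had been changed. Among the changed genes that passed it, the fit of all reads recovered 62.0% of those changed 4-fold and 99.0% of those changed 8-fold, with 1.94% of calls false. Changed genes that the filter removed do not enter these shares. Whether these shares hold for the 4 libraries, where 5326 of 16315 genes were called for all reads, was not tested. DESeq2 1.42.0, library totals, no filter, no library type, leaving out each library, other uses of the NTR and, added after the data had been examined, an NTR scaled to 10 zygotic genes were tried as alternatives. Other steps used Python 3.11.15 with pandas 2.3.3 and numpy 2.4.6.

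The 10 genes and the lists were chosen with earlier results of these data known. Of the lists, the text names the 3 largest rises and 3 largest falls among called genes that reached 100 reads in both library types, called genes of the unlabeled reads with an NTR of at least 50% in both 4.8 hpf libraries, and the relatives pkmyt1, cdc25, chek2, plk2a, plk2b, plk3, plk4 and fzr1a; the distance divided log2 changes by 4.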

Additional observations from a re-analysis of the deposited data

Results flagged for a closer look

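The log2 change in all reads of cdk1, 4.8 hpf over 1 hpf, was 0.155 in the polyA+ libraries and -2.0 in the ribo-depleted libraries, so the library types pointed in opposite directions. The log2 change in unlabeled reads of cdc25b was -0.188 (polyA+) and 0.216 (ribo-depleted). With 1 library per stage and type, neither difference was tested.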

How the results depend on the processing

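The calls of the 9 genes in all reads, and those in unlabeled reads, were the same under DESeq2, library totals, no filter on low counts, an NTR of 0 at 1 hpf and the NTR scaled to zygotic genes, each where it applied, except that unlabeled wee2 passed under library totals. Over all genes, 2983 were higher and 2343 lower for all reads, and 1675 and 1969 for unlabeled reads. DESeq2 called 1479 lower for all reads and 1235 for unlabeled reads. Library totals gave 1085 higher and 3166 lower for unlabeled reads, so that 25.5% of calls were higher in place of 46.0%, with a median log2 change over all genes of -0.35 in place of 0.05; for all reads that median was -0.06 in place of 0.10. The scaled NTR gave 1016 higher for unlabeled reads. Without library type, 1977 genes were called for all reads (1607 higher, 370 lower) and 398 for unlabeled reads (358 higher, 40 lower), of the 9 genes wee1 and chek1 for all reads and 0 for unlabeled reads (5 of them at an unadjusted p under 0.05). Leaving out 1 library at a time, which also leaves out library type, gave 952 to 1675 calls for all reads (814 to 1627 higher, 48 to 241 lower) and 0 to 797 for unlabeled reads (0 to 621 higher, 0 to 176 lower). The 0 for unlabeled reads arose without either 1 hpf library, where edgeR had 3205 and 3584 genes at an unadjusted p under 0.05. Over these fits the log2 change of cdk1 ranged from -2.07 to 0.59 for all reads and from -2.88 to 0.12 for unlabeled reads, the upper values without the 1 hpf ribo-depleted library. That of cdc25b ranged from -0.11 to 1.52 for all reads and from -0.31 to 1.29 for unlabeled reads, and was -0.07 and -0.11 for all reads, and -0.31 and -0.26 for unlabeled reads, without the 1 hpf ribo-depleted and the 4.8 hpf polyA+ library. What causes these shifts was not tested.

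The median NTR of the 10 genes at 4.8 hpf, 31.3% in polyA+ and 22.9% in ribo-depleted libraries, was 22.9% and 21.0% as the labeled share of their summed reads, 22.2% and 19.8% per base, and 43.7% and 28.3% with the scaled NTR. It was 21.3% in the ribo-depleted library over genes with at least 1000 reads. The median log2 change of unlabeled RPM, -1.76 in polyA+ and -1.75 in ribo-depleted libraries, was -1.55 and -1.39 with TMM factors, and -2.06 in the ribo-depleted libraries with a pseudocount of 0.05. Without library type, the listed genes gave 6 lower for all reads, and 1 higher and 2 lower for unlabeled reads. No paired analysis was possible because the table carries no replicate numbers; the fit with library type compares the stages within each library type. Depth limits cdc25d, and the spread between embryo pools was not measured.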

Other observations

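Of the 29 APC/C and spindle checkpoint genes, 10 (34.5%) were lower, 0 higher and 19 did not pass for unlabeled reads. Over all genes tested, 12.8% were lower and 10.9% higher. Among the 10 lower genes, bub3, chosen after its values were seen, had 34.7 (polyA+) and 42.5 (ribo-depleted) RPM at 4.8 hpf, against 182 and 127 at 1 hpf. Its NTR was 59.8% and 35.4% at 4.8 hpf, against 0 and 1.26% at 1 hpf. Its unlabeled reads fell (log2 change -2.55, SE 0.52, edgeR adjusted p = 1.59e-05). The APC/C subunit gene anapc15, also chosen after its values were seen, stood at 4.798 and 5.85 RPM at 4.8 hpf, against 29.0 and 27.2 at 1 hpf, with an NTR of 54.1% and 41.7% at 4.8 hpf, against 0 and 15.9% at 1 hpf. Among those that did not pass, the log2 change in unlabeled reads was 0.83 for anapc1, 0.78 for anapc7 and 0.68 for bub1.

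Of the 11 tested genes of the ATR and ATM checkpoint, 4 (36.4%) were lower for all reads, beside 14.4% of all genes tested. The checkpoint clamp gene rad1, named like the others here after its values were seen, had 11.2 and 13.3 RPM at 4.8 hpf, against 39.3 and 72.3 at 1 hpf, with 11.5% and 10.8% labeled at 4.8 hpf. The clamp loader gene rad17 had 9.40 and 18.7 at 4.8 hpf, against 18.3 and 107 at 1 hpf, with 13.7% and 10.6% labeled. Another clamp gene, rad9a, did not pass (log2 change -0.50, SE 0.46, edgeR adjusted p = 0.432), nor did the fork protection genes timeless (log2 change 0.15, SE 0.57, edgeR adjusted p = 0.869) and tipin (log2 change 0.04, SE 0.50, edgeR adjusted p = 0.964).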
